A study of Mus musculus with 2 samples.

Results

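The cells described here, chosen by the detection of marker RNAs, are macrophages of the injured mouse carotid artery that carry Lyve1, Cd163, C1qa, Folr2 and Cbr2, a group of genes typical of resident macrophages. A barcode was taken when it had at least 300 detected genes and at most 15% mitochondrial UMIs (unique molecular identifiers, counted molecules), at least 2 of the 4 macrophage markers Csf1r, Adgre1, Cd68 and Fcgr1, and no UMI of Cd209a. It also needed at least 3 of the 5 genes just named, and more of them than of each of 4 other panels of 5 genes, led by Ccl24 and Fn1, by Fabp5 and Hmox1, by Cxcl10 and Rsad2 (an interferon panel) and by Chil3 and Vcan. Of the 15613 barcodes in the files, 14451 passed the gene and mitochondrial limits and 196 were Lyve1/Cd163 cells, 62 of them in one library and 134 in the other.

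The study sequenced single cells of the carotid artery 18 hr after a temporary ligation that injures the endothelium. One library came from CDH5 Cre- Cx43fl/fl mice, whose connexin 43 gene is flanked by loxP sites in all cells but not recombined, and the other from CDH5 Cre+ Cx43fl/fl mice, in which Cre driven by the endothelial Cdh5 promoter is meant to remove connexin 43 (gene symbol Gja1) from endothelial cells. Arteries of 1 genotype were opened, briefly digested with liberase to favour the endothelium, combined, treated to lyse red cells and frozen in DMSO, so each library is a pool and each group has 1 library. Whether Cre had acted in the macrophages, and the age and number of the mice, were not given in the sources used here. Both groups carry the floxed alleles and both were injured, and no uninjured artery is part of the comparison. There was thus no replicate and no test: each value below describes 1 library, and every interval is a 95% interval that covers counting error only.

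As background, LYVE1-bearing macrophages sit in the outer layer of arteries and around vessels in many tissues. They are seeded early in life, renew slowly, take up hyaluronan, haemoglobin complexes and dying cells, and are told apart from macrophages that arise from blood monocytes, which carry Ccr2 and Ly6c2 and enter a vessel after injury. LYVE1 is a hyaluronan receptor, CD163 takes up haemoglobin bound to haptoglobin, C1QA is a chain of the complement starter C1q, FOLR2 is a folate receptor and CBR2 is a carbonyl reductase.

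The C1q genes lie side by side, and 2 of them were not used to choose the cells, so their promoters are shown beside that of Cd163. Per the GENCODE annotation of GRCm38 (mm10), C1qb runs on the minus strand of chromosome 4 from 136880129 to 136886187, C1qc from 136889804 to 136893065 and C1qa from 136895917 to 136898803. Cd163 lies on the plus strand of chromosome 6 from 124304656 to 124330527, and Lyve1 on the minus strand of chromosome 7 from 110850607 to 110863239. The 300 bases around each annotated start are from RefSeq (GRCm38.p6), 5′ to 3′ on the gene's strand, with matches in capitals to TGCTGA, the letters of a MAF half-site, and to GAGGAA, a core bound by PU.1, or to their reverse complements TCAGCA and TTCCTC. The windows are chr4:136886151-136886450, chr4:136892865-136893164 and chr6:124304401-124304700.
C1qb: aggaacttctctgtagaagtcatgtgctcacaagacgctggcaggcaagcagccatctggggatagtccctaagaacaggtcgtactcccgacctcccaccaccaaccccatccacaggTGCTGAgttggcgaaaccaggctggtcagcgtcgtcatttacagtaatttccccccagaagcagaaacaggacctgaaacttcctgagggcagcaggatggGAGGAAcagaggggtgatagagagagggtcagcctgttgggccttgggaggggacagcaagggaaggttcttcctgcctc
C1qc: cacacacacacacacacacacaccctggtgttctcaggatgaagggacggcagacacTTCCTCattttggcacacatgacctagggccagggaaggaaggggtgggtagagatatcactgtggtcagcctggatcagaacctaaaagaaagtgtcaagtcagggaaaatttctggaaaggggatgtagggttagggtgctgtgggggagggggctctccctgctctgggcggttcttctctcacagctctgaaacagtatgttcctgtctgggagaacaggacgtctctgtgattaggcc
Cd163: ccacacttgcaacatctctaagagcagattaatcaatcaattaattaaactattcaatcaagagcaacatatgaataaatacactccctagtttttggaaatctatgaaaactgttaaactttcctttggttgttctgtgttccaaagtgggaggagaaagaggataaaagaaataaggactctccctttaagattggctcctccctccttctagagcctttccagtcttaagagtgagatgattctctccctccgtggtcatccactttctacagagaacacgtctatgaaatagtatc
The C1qb window held 1 match to each motif, the C1qc window 1 match to GAGGAA and none to TGCTGA, and the Cd163 window none to either. Among all 32851 promoters of this length, 19.5% held TGCTGA and 28.3% held GAGGAA on either strand, so these matches are common letters and describe the windows only.

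The libraries held 7298 and 8315 barcodes with 48862850 and 54392831 UMIs, and macrophage-marked cells without Cd209a were 31.7% and 31.0% of the kept barcodes. The targeted gene did not follow the labels: over barcodes with at least 4 of 8 endothelial markers and fewer than 2 macrophage markers, Gja1 stood at 24.0 CPM (UMIs scaled to a total of 1000000 over the summed cells; 96 UMIs, interval 19.5 to 29.4) in the library labelled control and at 39.5 CPM (178 UMIs, 33.9 to 45.8) in the library labelled EC-Cx43-KO. Whether the counted 3′ end lies in the deleted part was not given, so this value does not check the deletion. The libraries are called the labelled control and the labelled knockout throughout. They shared 17 barcodes, none of them a Lyve1/Cd163 cell.

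The Lyve1/Cd163 cells gave 472628 UMIs in the labelled control, with a median of 6819 UMIs and 2574 genes per cell, and 908639 UMIs in the labelled knockout, with medians of 5915 UMIs and 2355 genes. Their median mitochondrial share was 3.05% and 3.40%, above the 0.97% to 1.55% of the 4 other macrophage classes. Of the macrophage markers, at least 2 of which the rule demanded in each cell, Csf1r stood at 400 and 457 CPM, Adgre1 (F4/80) at 669 and 734 CPM, Cd68 at 269 and 457 CPM and Fcgr1 at 182 and 186 CPM. Markers of other cells summed to at most 529 CPM a list. The 8 T and NK cell markers summed to 0 and 2.20 CPM, and the 8 fibroblast markers to 165 and 118 CPM, against 16442 and 14575 CPM in fibroblasts. Lymphatic endothelial cells also carry Lyve1, and of their 6 markers Ccl21a, Flt4, Mmrn1 and Reln were at 0 in both libraries and Prox1 had 1 UMI in each. Pdpn (podoplanin) gave nearly all of that list's 165 and 95.7 CPM, and stood at 108.7 to 640 CPM in the other macrophage classes. Smooth muscle markers summed to 294 and 30.8 CPM, with 125 of the 139 UMIs of the labelled control in 1 cell, and endothelial markers to 144 and 29.7 CPM. Neutrophil markers summed to 205 and 482 CPM and platelet markers to 529 and 103 CPM, and 4 and 6 of the cells scored as likely doublets. Without the likely doublets, smooth muscle markers summed to 35.0 and 25.1 CPM and endothelial markers to 12.5 and 18.3 CPM. Neutrophil markers then summed to 223 and 273 CPM and platelet markers to 390 and 102 CPM. Beyond these sums, the part of these other cells in the results was not tested. The macrophage markers and the panel genes had selected the cells, so they do not check the label, and the identity genes that the rule did not use are given as a description with the gene lists.

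The selecting genes are given as a description. Lyve1 stood at 1096 CPM in the labelled control and 1035 CPM in the labelled knockout, and a cell's level ranged from 0 to 4271 CPM and from 0 to 3418 CPM. Cd163 stood at 1792 and 2231 CPM, C1qa at 3104 and 3040 CPM, Folr2 at 326 and 354 CPM, and Cbr2 at 499 and 347 CPM. Cbr2 was detected in 90.3% and 73.9% of the cells and Folr2 in 74.2% and 85.8%, so the order of the libraries differed between these genes. In none of the other macrophage classes did Lyve1 exceed 11.5 CPM, whereas Cd163 reached 144 CPM in the Fabp5/Hmox1 class and C1qa reached 549 CPM in the interferon class of the labelled knockout. Lyve1 and Cd163 were detected together in 79.0% and 78.4% of the cells. With every cell thinned to 1000 UMIs, which left out 1 cell of the labelled control and 0 of the labelled knockout, a Lyve1 UMI was found in 52.5% and 54.5% of the cells, against 85.5% and 91.0% unthinned. Neutrophils, with median depths of 2361 and 2273 UMIs, had a Lyve1 UMI in 0.29% and 0.97% after thinning. A share of that size is read as background, whose source was not tested.

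**Figure D1:**
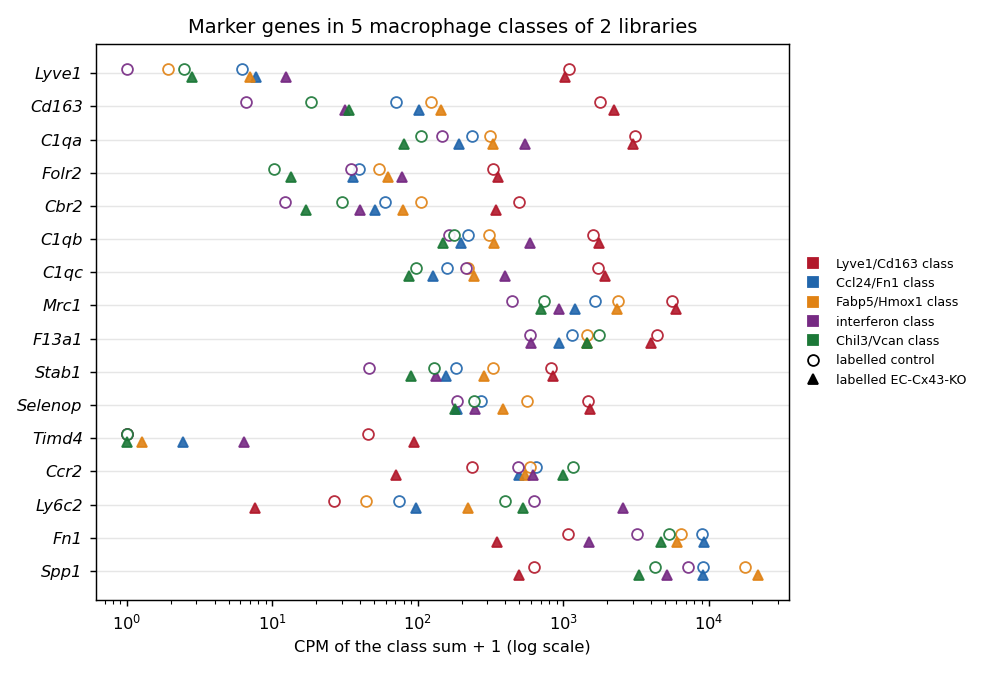
CPM plus 1 (log axis) of 16 marker genes in 5 macrophage classes, with open circles for the labelled control and filled triangles for the labelled knockout. The Lyve1/Cd163 class (red) stands to the right for the upper 12 genes and to the left for Ccr2, Ly6c2, Fn1 and Spp1, and its 2 libraries lie close together for most genes.

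Many cells lay near the limits of the rule. Of the 62 and 134 cells, 30 and 66 had all 5 genes, 27 and 50 had 4, and 5 and 18 had 3. At least 1 gene of the Fabp5/Hmox1 panel was detected in 98.4% and 99.3% of them, and 39 and 72 cells had at least 3 genes of that panel. Just inside the limit, 28 and 51 cells led by a single gene. Just outside it, 51 and 70 cells were tied with another panel and 163 and 150 cells had at least 3 of the 5 genes but more of another panel. Lyve1 stood at 662 and 618 CPM in the cells that led by 1 gene and at 296 and 99.5 CPM in the tied cells. Spp1 (osteopontin), which the rule did not use, stood at 956 and 1387 CPM just inside and at 3651 and 5514 CPM in the tied cells, but 1 cell of each library held 194 of the 237 and 300 of the 415 Spp1 UMIs just inside. Fn1, a panel gene, stood at 1791 and 1033 CPM just inside and at 2844 and 2980 CPM when tied. The ban on Cd209a kept out a further 3 and 15 cells.

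Lyve1/Cd163 cells made up a larger part of the labelled knockout. They were 0.92% of kept barcodes (62 of 6739, interval 0.706% to 1.18%) in the labelled control and 1.74% (134 of 7712, 1.46% to 2.05%) in the labelled knockout, a log2 ratio of 0.92 (0.49 to 1.35). Of macrophage-marked cells they were 2.90% and 5.60%. The difference rested on the demand that the 5 genes outnumber the other panels. Cells with at least 3 of the 5 genes, whatever else they held, were 4.10% (276 cells) and 4.59% (354 cells), a log2 ratio of 0.16 (-0.06 to 0.39), and this setting was chosen after the data were seen. Genes of the other panels decide which of these cells count, and the classes led by those panels also differed in size between the libraries. The Fabp5/Hmox1 class held 497 cells (23.2% of macrophage-marked cells) in the labelled control and 400 (16.7%) in the labelled knockout, the Ccl24/Fn1 class 356 and 347, the Chil3/Vcan class 382 and 479, and the interferon class 18 and 159. Of the tied cells, 37 and 53 were tied with the Fabp5/Hmox1 panel and 2 and 9 with the interferon panel. Which panel moved the share was not tested. With 1 pooled library a group, a difference in genotype cannot be told apart from one in dissection, digestion or the mice that were pooled.

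The cells also differed from other macrophages in their sex-linked UMIs. Cells with Xist UMIs, transcribed from the inactive X of female cells, and no Y-linked UMI were 30.6% of Lyve1/Cd163 cells in the labelled control (19 cells) and 23.1% in the labelled knockout (31 cells), against 65.2% and 53.4% of all macrophage-marked cells. Cells with Y-linked UMIs and no Xist UMI numbered 31 and 81, against 386 of 2139 and 598 of 2393 macrophage-marked cells, and 2 and 4 Lyve1/Cd163 cells had both kinds. Both libraries thus held cells with the RNA of either sex. Put the other way, Lyve1/Cd163 cells were 1.36% (0.822% to 2.12%) and 2.43% (1.65% to 3.43%) of macrophage-marked cells with Xist UMIs. They were 8.03% (5.52% to 11.2%) and 13.5% (10.9% to 16.6%) of those with Y-linked UMIs. Demanding at least 2 UMIs of a kind gave 1.59% and 2.70% with Xist and 7.30% and 13.2% with Y-linked genes. Without the demand against the other panels, cells with at least 3 of the 5 genes were 4.40% and 4.12% of all kept cells with Xist UMIs and 7.55% and 7.94% of those with Y-linked UMIs. The number of mice of each sex was not given, so sex cannot be told apart from single animals. Between the libraries the log2 ratio of shares of kept cells was 0.88 (0.06 to 1.70) with Xist UMIs and 0.61 (0.03 to 1.20) with Y-linked UMIs. With at least 2 UMIs of a kind these ratios were 0.80 (-0.04 to 1.63) and 0.72 (-0.007 to 1.44), and both intervals include 0.

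**Figure D2:**
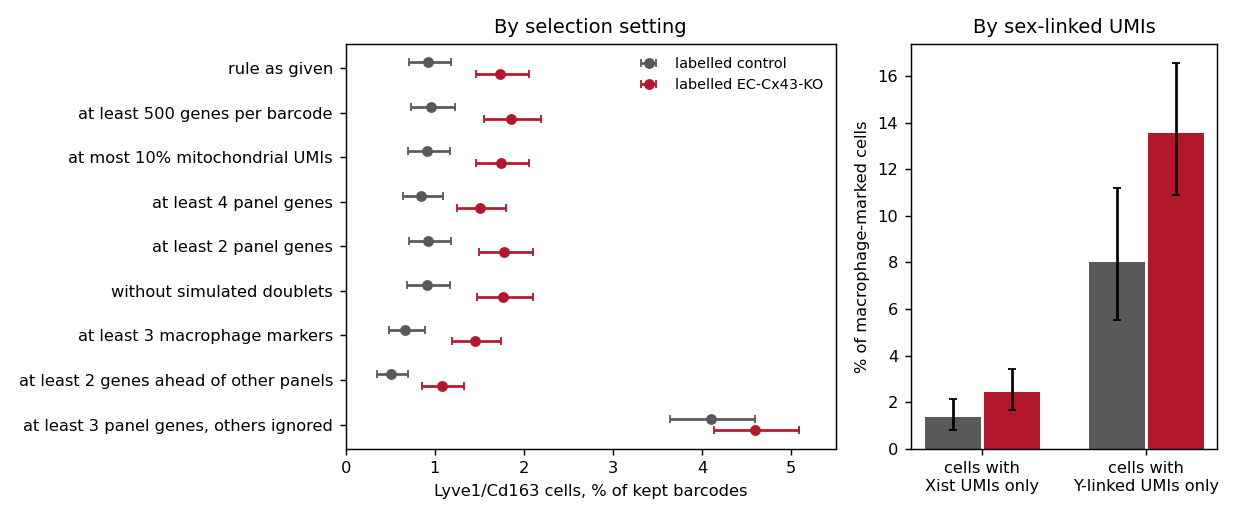
Left, Lyve1/Cd163 cells as a percentage of kept barcodes under 9 settings of the rule; right, their percentage among macrophage-marked cells with Xist or with Y-linked UMIs only, with 95% counting intervals, the labelled control in grey and the labelled knockout in red. The libraries are apart under 8 settings and overlap when the other panels are ignored, and cells with Y-linked UMIs hold the higher shares in both libraries.

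Against the other macrophages of the same arteries the cells formed a distinct profile, given as a description since expression chose them. Of 10043 genes outside the rule with at least 100 UMIs over the 5 classes, 228 (2.27%) were at least 2-fold higher than in each of the 4 other classes in both libraries, and 182 (1.81%) were at least 2-fold lower. With the other panels ignored these counts were 37 and 33 of 10235, so they depend on the demand that cells hold fewer genes of the other panels. The gene furthest above was Agmo, a monooxygenase that cleaves ether lipids, at 343 and 327 CPM against 2.53 to 16.8 CPM in the other classes. It was detected in 45.2% and 56.7% of the cells. Stard8, a GTPase-activating protein, stood at 396 and 455 CPM, and Plekhg5, an activator of small GTPases, at 199 and 184 CPM. Mctp1 and Mctp2, membrane proteins with calcium-binding C2 domains, stood at 1344 and 1742 CPM and at 222 and 238 CPM.

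Several of the leading genes make secreted or receptor proteins. Il10, an anti-inflammatory cytokine, stood at 402 and 559 CPM and was at most 77.2 CPM in the 4 other classes. It was detected in 33.9% and 41.0% of the cells. In the cells tied with another panel, just outside the rule, Il10 stood at 230 and 70.8 CPM. In the cells that led by 1 gene it stood at 145 and 461 CPM. Cxcl13, a chemokine that draws B cells, stood at 353 and 470 CPM but came from few cells, 16.1% and 22.4%, with 37.7% and 26.5% of its UMIs in 1 cell. Gas6, which bridges dying cells to uptake receptors, stood at 444 and 445 CPM and Kitl, stem cell factor, at 133 and 175 CPM. Fcgrt, the neonatal Fc receptor, stood at 423 and 323 CPM, Colec12, a scavenger receptor, at 290 and 460 CPM, and Slco2b1, an organic anion transporter, at 125 and 133 CPM. The others among the first 20 were Gpt2, Tanc2, Immp2l, Ctla2b, Nfatc2, Prune2, Rgs7bp and Pmp22, from 110 to 474 CPM. Ctla2b and Ctla2a are near-identical copies, and reads may be split between them. Of the 20 genes, 18 matched 26 promoters in RefSeq, 4 of which held TGCTGA and 7 GAGGAA.

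**Figure D3:**
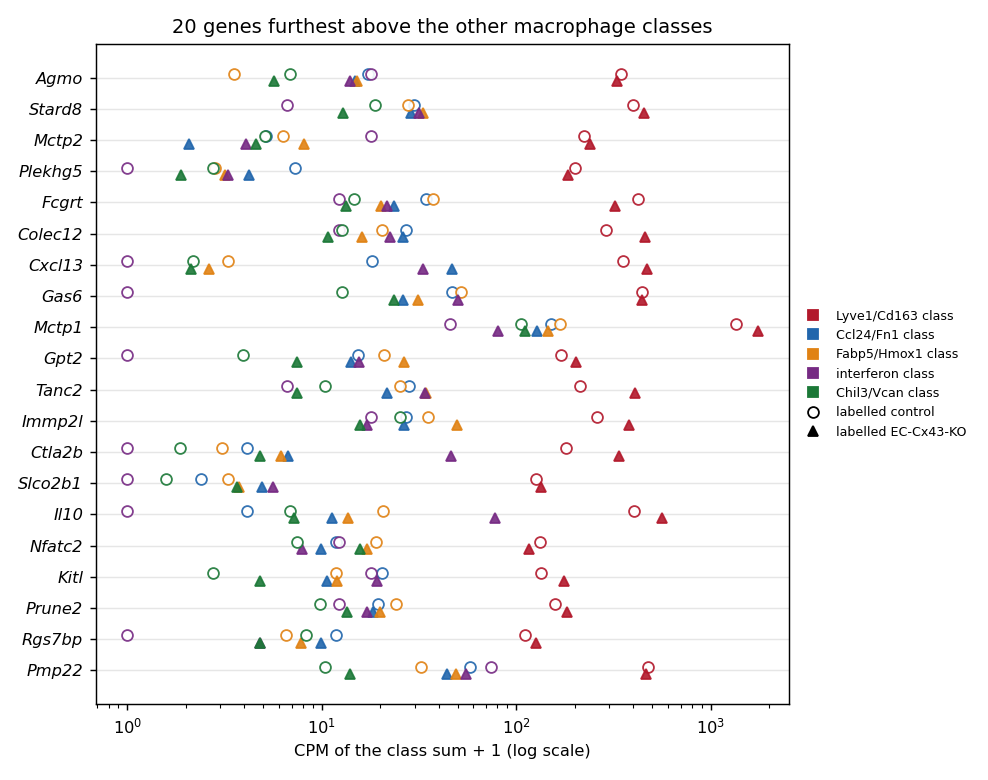
CPM plus 1 (log axis) of the 20 genes furthest above the 4 other macrophage classes in both libraries, with symbols and colours by library and class. The red symbols of the Lyve1/Cd163 class stand alone on the right of each row, and the 2 libraries lie near each other.

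The gene lists describe this profile further, and since expression chose the cells they do not check the label. Of 25 measured genes of resident macrophage identity, 15 were at least 2-fold above every other class in both libraries and 0 below, against 2.27% and 1.81% of all genes. Mrc1, the mannose receptor, stood at 5598 and 5962 CPM against 443 to 2377 CPM in the other classes, and F13a1, coagulation factor XIII, at 4445 and 3989 CPM. Mrc1 was not confined to the class, as it stood at 4679 and 4705 CPM in the tied cells just outside the rule. In the cells that led by 1 gene Mrc1 stood at 3994 and 5745 CPM. Selenop, a selenium carrier, stood at 1475 and 1529 CPM and Stab1, a scavenger receptor, at 821 and 850 CPM. Timd4, a phosphatidylserine receptor of long-lived resident cells, stood at 44.4 and 93.6 CPM and at no more than 5.35 CPM in the other classes, but only 17.7% and 29.9% of the cells had a UMI. Among complement genes, C1qb, C1qc and C4b were higher and C3 was lower. C1qb stood at 1593 and 1764 CPM and C1qc at 1731 and 1937 CPM. In the scavenging list 6 of 18 were higher, namely Gas6, Pros1, Stab1, Colec12, Timd4 and Mrc1, and Clec4n was lower. The lists overlap in several of these genes.

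The converse held for genes of recruited monocytes, of which 0 of 15 were higher and 8 were lower, namely Thbs1, Itgal, Gpr141, Ms4a4c, Hp, F10, Msrb1 and Clec4e. F10, coagulation factor X, stood at 12.7 and 2.20 CPM against 140 to 319 CPM, and Plcb1, a phospholipase C, at 55.0 and 20.9 CPM against 570 to 1811 CPM. Il7r, the interleukin 7 receptor, stood at 2.12 and 5.5 CPM against 68.5 to 332 CPM. Spp1 stood at 624 and 492 CPM against 3338 to 21743 CPM, and 65.8% and 67.1% of its UMIs lay in 1 cell of each library. Il1b, Clec4e and Thbs1 were lower in the inflammatory list and Nfkbiz, a regulator of NF-kappaB, was higher, at 1363 and 1414 CPM against 183 to 448 CPM. In the repair list Il10 and Mgl2 were higher and Il1rn, Tgm2, Spp1 and Lgals3 were lower. The other named genes below every class were Sirpb1c, Rab11fip1, B3gnt5, Gngt2, Gcnt2, Flrt3 and Fgr, from 2.12 to 15.4 CPM. With the other panels ignored, Spp1, Il7r and Flrt3 were no longer below every class, and their highest log2 ratio over another class was 0.61, 0.53 and 0.93.

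Other lists had a few genes apart from every other class. Igf1 and Pdgfc, growth factors of tissue macrophages, were higher, at 209 and 258 CPM and at 116 and 141 CPM, while Vegfa and Gdf3 were lower. The iron genes Tfrc, the transferrin receptor, and Cp, ceruloplasmin, were higher among 14. Tgfbr2 and Tlr7 were higher and Csf2rb lower among 16 receptors. Of 16 immediate early and heat shock genes, which dissociation can induce, Jun, Egr1, Hspa1a and Hspa1b were higher and the list summed to 18272 and 20997 CPM, against 8316 to 12314 CPM in the other classes and 17319 and 15850 CPM in fibroblasts. The mitochondrial share was also higher in these cells, and the part of dissociation was not tested. No gene of the MHC class II, interferon or lysosome lists was at least 2-fold apart from every other class. Maf, a transcription factor of macrophage identity, stood at 2670 and 1930 CPM, near the 1492 to 2355 CPM of the other classes.

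Between the libraries most genes stood within 1.5-fold of each other. Of 4447 genes with at least 50 UMIs, 333 (7.49%) were at least 1.5-fold higher in the labelled knockout and 318 (7.15%) at least 1.5-fold lower, a size rule and not a test. Over all cells the abundant resident genes differed little: Mrc1 had a log2 ratio of 0.09 (0.02 to 0.16), F13a1 of -0.16, C1qb of 0.15, C1qc of 0.16, Stab1 of 0.05 and Selenop of 0.05. In cells with Xist UMIs, however, C1qb had a log2 ratio of 0.94 (0.63 to 1.27) and C1qc of 0.71 (0.44 to 0.98). In cells with Y-linked UMIs these were 0.02 and -0.003, and this gap was not tested. Over lists the rule was read among genes with at least 20 UMIs, of which 12% were higher and 11.7% lower and whose median log2 ratio was -0.03. In the identity list 4 of 29 were higher (Vsig4, Timd4, Cd209b and Cd209d) and 3 lower (Cd209g, Mgl2 and Cx3cr1), with a median of -0.16. Vsig4, a complement receptor of resident macrophages, had 6 UMIs in 3 cells of the labelled control and 74 UMIs in 35 cells of the labelled knockout, or 12.7 and 81.4 CPM and a log2 ratio of 2.68 (1.49 to 4.17). Timd4 stood at 44.4 and 93.6 CPM (log2 1.07, 0.37 to 1.84). In cells with Y-linked UMIs its log2 ratio was 0.50 (-0.31 to 1.37), and in cells with Xist UMIs it had only 2 and 24 UMIs. The Cd209 genes are close copies of each other and their reads may be split among them.

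The genes furthest above also included Gdf15, a stress-induced growth factor, with 3 UMIs and 53 UMIs, or 6.35 and 58.3 CPM, a log2 ratio of 3.20 (1.57 to 5.52). Ctla2a had 34 UMIs and 229 UMIs, or 71.9 and 252 CPM, and was detected in 22.6% and 57.5% of the cells. Ifi202b, Dhrs7, Tppp, Itpr2, Ifitm1, S100a8 and Gbe1 made up the rest of the 10, with log2 ratios from 1.74 to 2.23. For Itpr2, 57.1% of the UMIs in the labelled knockout lay in 1 cell. S100a8 is a neutrophil gene, and the neutrophil markers as a whole summed to 205 and 482 CPM. Without likely doublets these markers summed to 223 and 273 CPM. Their part in the S100a8 ratio was not tested. C4b, complement component 4, stood at 152 and 332 CPM (log2 1.13, 0.75 to 1.52), and at 215 and 448 CPM in cells with Xist UMIs and 147 and 284 CPM in cells with Y-linked UMIs.

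Chemokines that draw monocytes were split. Ccl8 stood at 556 and 1234 CPM (log2 1.15, 0.95 to 1.35) and Ccl12 at 402 and 883 CPM (log2 1.13, 0.90 to 1.37), while Ccl2 stood at 2423 and 1660 CPM (log2 -0.55) and Ccl7 at 1875 and 1839 CPM. Ccr1, a chemokine receptor on the same list, was lower at 129 and 74.8 CPM. Ccl8 was higher in cells with Xist UMIs (582 and 1414 CPM) and in cells with Y-linked UMIs (459 and 1208 CPM). Ccl12 stood at 207 and 1971 CPM among cells with Xist UMIs and at 528 and 449 CPM among those with Y-linked UMIs. Ccl2 had log2 ratios of 0.05 with Xist and -1.07 with Y-linked UMIs. These gaps were not tested. Ccl8 was also higher in the labelled knockout in each of the 4 other macrophage classes, by log2 ratios of 1.53 to 4.37. Of the neutrophil-attracting chemokines Cxcl2 stood at 2376 and 4063 CPM and Cxcl1 at 637 and 736 CPM, and Cxcl3 and Ccl4 were lower. Il10 stood at 402 and 559 CPM (log2 0.48, 0.23 to 0.72), below the 1.5-fold mark.

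Genes of MHC class II, which present antigen, were lower in the summed cells of the labelled knockout. H2-Aa stood at 427 and 125 CPM (log2 -1.77, -2.11 to -1.43), H2-Ab1 at 267 and 77.0 CPM, H2-Eb1 at 269 and 73.7 CPM and Cd74, the invariant chain, at 1227 and 545 CPM. Those 4 of 9 measured members were lower and H2-DMa was higher, beside 11.7% and 12% of all genes with at least 20 UMIs. Summed, the list came to 3174 and 1782 CPM. The list was unevenly spread over cells: 69.4% and 66.4% of the cells had a UMI of it, with medians of 499 and 288 CPM, and 1 cell gave 29.0% of the UMIs in the labelled control. Without the cell with most UMIs in each library H2-Aa had a log2 ratio of -1.30. The direction differed with the sex-linked UMIs. Among cells with Y-linked UMIs Cd74 stood at 1295 and 333 CPM (log2 -1.96, -2.22 to -1.70), and among the 19 and 31 cells with Xist UMIs it stood at 550 and 1125 CPM (log2 1.03, 0.64 to 1.44). H2-Ab1 had log2 ratios of -3.19 with Y-linked and 1.58 with Xist UMIs. The gap between these cells was not tested, and it rests on few cells and an unknown number of mice. In the other classes H2-Aa had log2 ratios of 0.69 (Ccl24/Fn1), -0.01 (Fabp5/Hmox1), -1.65 (interferon) and -0.21 (Chil3/Vcan).

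**Figure D4:**
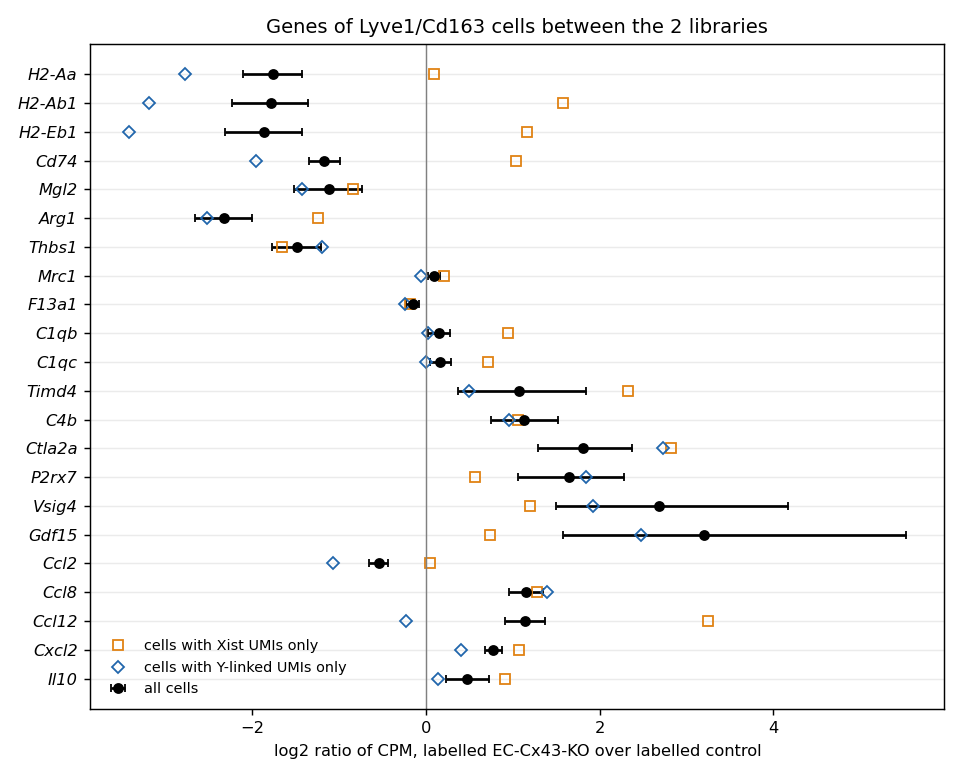
Log2 ratio of CPM, labelled knockout over labelled control, for 22 genes of Lyve1/Cd163 cells, with 95% counting intervals for all cells (black) and values in cells with Xist UMIs only (orange squares) and Y-linked UMIs only (blue diamonds). For the 4 MHC class II genes the squares lie at or above 0 and the diamonds far below it, while for Mrc1 and F13a1 all 3 symbols lie near 0. For C1qb and C1qc the squares lie above 0 and the diamonds near it.

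Some genes shared with recruited macrophages were lower in the labelled knockout, while the summed list of recruited monocyte genes was level. Of its 9 measured genes 3 were lower (Thbs1, Plac8 and S100a4) and 1, Lyz2 (lysozyme), was higher. Among all genes with at least 20 UMIs 11.7% were lower and 12% higher. The list had a median log2 ratio of -0.42 and summed to 6815 and 6847 CPM. With at least 2 genes ahead of each other panel the median was 0.26. Arg1, an arginase that was 863 to 4754 CPM in the other classes, stood at 597 CPM in 27.4% of the cells of the labelled control and at 119 CPM in 14.9% of those of the labelled knockout (log2 -2.33). Thbs1, thrombospondin 1, stood at 537 and 191 CPM (log2 -1.49), in cells with Xist UMIs at 662 and 209 CPM and in cells with Y-linked UMIs at 474 and 206 CPM. With the other panels ignored the log2 ratio was -0.26 for Arg1 and -0.03 for Thbs1. Plac8 had a log2 ratio of -1.64, which turned to 0.88 with at least 2 genes ahead and to 0.25 with the other panels ignored, and S100a4 one of -0.69, which was -0.08 with at least 2 genes ahead. Lyz2 stood at 1805 and 2780 CPM. Levels of the panel genes Fn1 (1075 and 352 CPM), Ccr2 (235 and 69.3 CPM), Fabp5 (91.0 and 3.30 CPM) and Chil3 (148 and 18.7 CPM) are set in part by the rule and are a description only. At the edge of the rule Arg1 stood at 997 and 294 CPM in cells that led by 1 gene and at 156 and 32.8 CPM in cells that led by more.

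Single cells held much of the RNA of the genes with the lowest ratios. Acta2, Ccn2, Tm4sf1, Olfr1033, Ttll12, Ppbp, Cytl1, Arg1, Mgp and H2-Eb1 had the 10 lowest log2 ratios, from -3.65 to -1.87. In all of them but Ppbp, Arg1 and H2-Eb1, 1 cell held from 72.6% to 92.5% of the UMIs of the labelled control. A single cell of the labelled control, with 25669 UMIs, gave most of the UMIs of Acta2, Ccn2 and Olfr1033 and 125 of the 139 UMIs of smooth muscle markers. It was among the likely doublets. Without the cell with most UMIs of a gene in each library, Cytl1 had a log2 ratio of -0.46, Olfr1033 of 0.30 and Mgp of 0.47. The others stayed beyond the 1.5-fold mark: Ccn2 had one of -0.62, Acta2 and Ttll12 of -0.94, H2-Eb1 of -1.32, Tm4sf1 of -2.46, Ppbp of -2.79 and Arg1 of -2.89. Few UMIs were left for Acta2, Ccn2 and Ttll12, as the removed cells held 74 of 85, 60 of 68 and 32 of 41 in the labelled control. The labelled knockout had 13, 11 and 11 UMIs in all. No interval is given for these ratios, so for these 3 genes a difference is not shown. Ppbp, a platelet chemokine, stood at 520 and 75.9 CPM, in 7 and 23 cells, but its direction turned with at least 2 genes ahead (log2 0.98) and in cells with Xist UMIs (1.06).

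The interferon response, whose class of macrophages held 18 and 159 cells, had a level median between the libraries over all Lyve1/Cd163 cells. The rule left out cells in which the interferon panel reached the count of the 5 genes, so this value is a description only. Over 30 measured members, without the 5 that the rule used, the median log2 ratio was -0.03, beside -0.03 over all genes, with Ifit3, Ifih1, Oas1g and Herc6 among those higher and Ifit1 and Ifi205 among those lower. The members summed to 4253 and 4324 CPM. In the other macrophage classes the median was 0.24 (Ccl24/Fn1), 0.89 (Fabp5/Hmox1), 0.50 (interferon) and 0.14 (Chil3/Vcan), and over all macrophage-marked cells it was 0.98. With at least 3 of the 5 genes and no regard to any other panel the median was 0.69, and which panel moved it was not tested. It was 0.75 in cells with Xist UMIs (4123 and 6052 CPM) and -0.68 in cells with Y-linked UMIs (4465 and 3470 CPM), a gap that was not tested. Isg15, a ubiquitin-like interferon target, stood at 76.2 and 73.7 CPM.

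The targeted gene was scarce in these cells. Gja1 gave 12 UMIs in the labelled control and 40 in the labelled knockout, or 25.4 and 44.0 CPM (log2 0.79, -0.17 to 1.86), an interval that includes 0. Of the genes that sense extracellular ATP, P2rx7, an ATP-gated channel, stood at 59.2 and 185 CPM (log2 1.64, 1.06 to 2.27) and was detected in 35.5% and 43.3% of the cells, and P2ry12, an ADP receptor, stood at 86.8 and 88.0 CPM. P2rx7 had log2 ratios of 0.57 (-0.69 to 1.97) with Xist and 1.85 (1.07 to 2.73) with Y-linked UMIs. In the list of gap junction and ATP sensing genes 2 of 8 measured members were higher (P2rx7 and Gja1) and 1, Adora2b, was lower. For this list and the next ones, the share over all genes with at least 20 UMIs was 12% higher and 11.7% lower. Of growth factor receptors 2 of 16 were higher (Csf3r and Tgfbr1), near that share, and 0 lower. Of haem and iron genes 3 of 16 were higher (Slc40a1, Steap4 and Spic), and Slc40a1, the iron exporter ferroportin, had 2 UMIs and 45 UMIs with 42.2% of the latter in 1 cell. Of 23 lysosomal genes 1 was higher and 1 lower, and they summed to 14709 and 14783 CPM. Of the immediate early genes Atf3 was higher (377 and 745 CPM) and Egr2 lower (180 and 82.5 CPM), while Egr1 stood at 2063 and 2033 CPM.

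**Figure D5:**
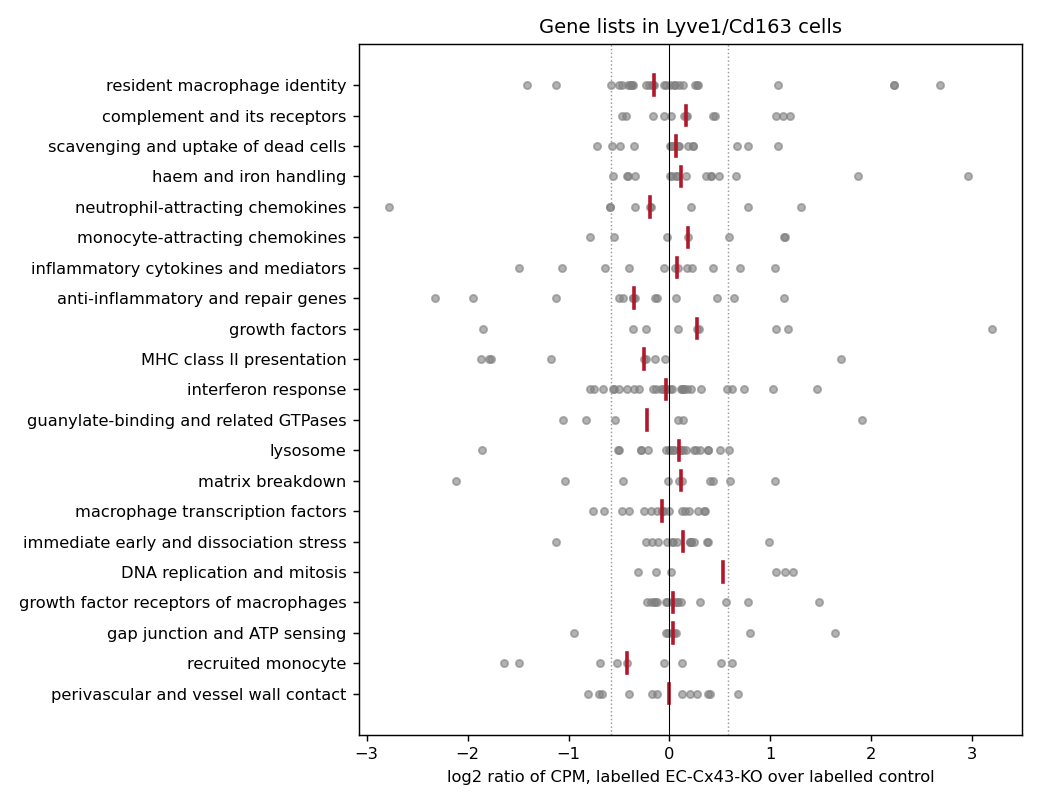
Log2 ratios of single genes (grey points, at least 20 UMIs) in 21 gene lists, labelled knockout over labelled control, with the list's median as a red bar and dotted lines at the 1.5-fold mark. The medians lie between -0.42 (recruited monocyte) and 0.54 (DNA replication and mitosis, 6 genes).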

How the data were processed

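The deposited filtered matrices hold raw counts of UMIs per gene and barcode, made by the authors with Cell Ranger 8.0.1, per the file headers, and with STAR on mm10, per the submitters' processing notes. Nothing was normalised in them. Members were found by the rule given in the report, UMIs of the cells of a class were added up in each library and scaled to CPM. Intervals were Clopper-Pearson for shares, Katz for ratios of shares, exact Poisson for sums and exact conditional binomial for log2 ratios, all at 95%. A sum under 3 UMIs was taken as 3 in a ratio, and 40 gene symbols occur more than once. Doublets were scored against simulated pairs, at an assumed 0.008 per 1000 cells, and kept. The code was tested on simulated data. Python 3 libraries NumPy, SciPy, pandas and matplotlib were used.

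The named genes were the 20 furthest above and 12 furthest below every other macrophage class (at least 100 UMIs and 10% of cells), the 10 highest and 10 lowest ratios between libraries (at least 50 UMIs and 5% of cells) and up to 4 members with most UMIs of each list. Mitochondrial, ribosomal and haemoglobin genes, Xist, Tsix and Y-linked genes, unnamed gene models and the rule's genes were left out of the rankings. Other genes were named after their values were seen, and some genes are not reported here. The members and the 32 gene lists were chosen with earlier results of these data known. Of 40 interferon genes 38 are in the files under their symbols and 5 belong to the rule. Gene positions are from GENCODE and promoters from RefSeq. Alternatives were tried for the barcode limits, the number of panel and marker genes, doublets, free RNA, the scaling, UMI minimums, sex-linked UMIs and, after seeing the data, the demand against other panels, the interferon class and single cells.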

Additional observations from a re-analysis of the deposited data

How the results depend on the processing

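No paired analysis was possible because each group has 1 library, and no replicate could be left out. The share of Lyve1/Cd163 cells, its ratio, the counts of genes and the interferon median stayed within their own error, or within 1.5 times for counts, under at least 500 genes, at most 10% mitochondrial UMIs and at least 4 or at least 2 panel genes. So did the counts and the interferon median under 5% of free RNA subtracted, the mean of single-cell CPM and median-of-ratios scaling, which leave the shares as they are. For the interferon median the error used has the width of the counting error of the summed members. It does not measure the spread over the genes of the list. With at least 3 macrophage markers the shares were 0.668% and 1.45% and the interferon median 0.14. With at least 2 genes ahead of each other panel the shares were 0.505% and 1.08%. With the other panels ignored they were 4.10% and 4.59% (log2 ratio 0.16), the genes above and below all classes were 37 and 33, those lower in the labelled knockout were 488, and the interferon median was 0.69. As part of macrophage-marked cells the shares were 2.90% and 5.60%. Without the interferon class 385 genes were higher than in each other class. At a minimum of 100 UMIs, 129 genes (4.88% of 2646) were higher and 119 (4.50%) lower in the labelled knockout. In cells with Xist UMIs these were 195 (14.9% of 1312) and 202 (15.4%), and the interferon median was 0.75. It was -0.68 in cells with Y-linked UMIs and -0.20 without likely doublets. The cause of these moves was not tested.

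Of the single-gene values under the alternatives, 830 stayed within their error, 231 moved in size and 24 changed sign. The sign changes, as log2 ratios, were these. With the other panels ignored, the highest ratio over other classes was 0.53 for Il7r, 0.61 for Spp1 and 0.93 for Flrt3, and the ratio between libraries was 1.63 for Cytl1 and 0.25 for Plac8. With at least 2 genes ahead it was -0.024 for Il1rn, 0.88 for Plac8 and 0.98 for Ppbp. In cells with Xist UMIs it was 1.03 for Cd74, -0.031 for Colec12, 0.088 for H2-Aa, 1.58 for H2-Ab1, 1.16 for H2-Eb1, -0.57 for Itpr2, 0.32 for Olfr1033, 1.06 for Ppbp and -0.0019 for S100a8. In cells with Y-linked UMIs it was -0.24 for Ccl12 and 0.19 for Mgp. Without likely doublets it was -0.45 for Ifitm1, 0.87 for Mgp and 0.37 for Olfr1033, and without the cell with most UMIs in each library 0.47 for Mgp and 0.30 for Olfr1033. Depth limits genes with few UMIs: Gja1, with 12 and 40, had an interval of -0.17 to 1.86, and Gdf15, with 3 and 53, one of 1.57 to 5.52.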

Other observations

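A group of genes for contact with the vessel wall was partly raised in Lyve1/Cd163 cells. Of 13 measured members, Cd38, an enzyme that breaks down NAD, Hpgd, which inactivates prostaglandins, and Itga9, an integrin chain, were at least 2-fold above each other macrophage class in both libraries, and Sema4d was below. Cd38 stood at 666 and 726 CPM against 78.5 to 315 CPM, Hpgd at 50.8 and 81.4 CPM against 0 to 14.6 CPM, and Itga9 at 110 and 127 CPM against 5.61 to 24.2 CPM. Timp2, an inhibitor of matrix proteases, was the 1 member of 16 matrix genes above every class, at 440 and 594 CPM, and Plaur, the urokinase receptor, was the 1 below.

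Mki67, a gene of cycling cells, was found in few of the cells. It had 1 UMI in the labelled control and 7 UMIs in 3 cells of the labelled knockout, and of 21 replication and mitosis genes 12 and 18 had any UMI. That list summed to 567 and 609 CPM, against 304 to 538 and 284 to 479 CPM in the other macrophage classes. Of its 12 measured members, 0 were at least 2-fold above every other class. Their median log2 ratio over the mean of the other classes was -0.47 and 0.42. Between the libraries the list's median of 0.54 was -0.01 without likely doublets and -0.23 with the mean of single-cell CPM. Mcm2, Mcm3 and Mcm6, parts of the replication helicase, were higher in the labelled knockout on 4 to 6 and 17 to 24 UMIs, with intervals that all reached below 0. Cxcl10, which the rule used against these cells, had 3 UMIs in 1 cell and 131 UMIs in 8 cells, 76.3% of the latter in a single cell.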
